A study of Bos taurus with 8 samples.

Results

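Transcripts of the integrated stress response and the unfolded protein response were examined in bovine embryonic stem cells (bESCs). A named list of 10 genes was taken from the deposited counts per gene, namely *ATF4*, *ATF5*, *DDIT3*, *TRIB3*, *CHAC1*, *ASNS*, *SESN2*, *HSPA5*, *XBP1* and *HERPUD1*, out of 32640 genes listed. All 10 passed the filter on low counts, which left 15744 genes for testing. The 8 libraries came from 4 bESC lines (A, C, D and E), with 1 library of each line grown on irradiated mouse embryonic fibroblasts (bESCs on MEF) and 1 grown feeder-free on vitronectin. All lines carry the genotype label XX and were kept at 5% O2 in both conditions, and each line counted as one biological replicate. They had been derived from whole in vitro-produced embryos and maintained in NBFR medium, which contains FGF2 and the WNT inhibitor IWR-1. Cells on MEF are labelled as passage 15 to 17 and feeder-free cells as passage 20 to 22, so effects of passage and of culture matrix cannot be told apart. The labels name the medium NBFRA for both conditions, whereas Activin A was added only for feeder-free culture according to the study's methods, so a difference in medium between the conditions cannot be told apart from the matrix either. Removal of reads of a pure MEF sample is described for bESCs on MEF, and its effect cannot be told apart from the matrix.

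In the integrated stress response, kinases that sense amino acid shortage, viral RNA, heme deficiency or stress of the endoplasmic reticulum (ER) phosphorylate the translation factor eIF2α, which lowers general protein synthesis and favours translation of ATF4. The transcription factor ATF4 then induces genes of amino acid supply, redox balance and, with DDIT3, cell death. The unfolded protein response has the ER sensors PERK, IRE1 and ATF6, which between them act on eIF2α, on XBP1 mRNA splicing and on genes of ER chaperones and ER-associated degradation. Counts per gene measure total mRNA, and neither translation of ATF4 nor splicing of XBP1 is visible in them.

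Libraries on MEF held 44268717 to 54296425 counts on genes and feeder-free libraries 49671478 to 102351560, the largest being that of line D. Pluripotent cell markers were detected in every library (8 of 8 tested), with a summed level of 5455 to 6050 CPM (counts scaled to a common library total after TMM normalization) on MEF and 4678 to 5299 CPM in feeder-free conditions. None of them passed both thresholds in the unpaired test, but 6 of the 8 were lower at an unadjusted P-value under 0.05. Of all tested genes, 21.6% were under this P-value in either direction, and 10.2% were under it and higher. Of the 8 markers, 6 were lower in all 4 lines, a share not counted over all genes, and the median log2 fold change was -0.32. *SALL4* had an unpaired adjusted P-value of 0.0426 in edgeR with a log2 fold change of -0.58, under the fold change threshold. *OTX2* was lower in feeder-free conditions with lines paired (379.6 ± 63.0 against 244.9 ± 65.6 CPM, SD, n = 4 per condition). Of 16 fibroblast markers 14 were tested, and their summed level was 442.6 to 570.2 CPM on MEF and 260.7 to 1303 CPM in feeder-free conditions, the highest again in line D. Much of this sum was 1 gene, *COL1A1*, at 292.1 to 382.6 CPM on MEF. In feeder-free conditions *COL1A1* was at 115.0 to 1033 CPM, the highest in line D. *COL1A2* reached 0.68 to 4.65 CPM on MEF and 0 to 0.414 CPM in feeder-free conditions, and *PRRX1* 1.02 to 2.62 CPM and 0 to 0.606 CPM. None of the 14 passed unpaired, and with lines paired these 2 passed as lower and *COL3A1* and *POSTN* as higher in feeder-free conditions. The part that these markers play in the results below was not tested. In bulk RNA, fewer cells of a type and less RNA per cell cannot be told apart.

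The comparison asked how the transition of bESCs from MEF to feeder-free culture in low oxygen was reflected in the stress response genes. The mean level of 9 of the 10 genes was higher in feeder-free bESCs, where 50.56% of all tested genes had a log2 fold change above 0. *ATF4*, *DDIT3*, *HSPA5*, *XBP1* and *HERPUD1* were higher in all 4 lines. In the quasi-likelihood test of edgeR over all 15744 genes, *ATF4*, the central transcription factor, and *HSPA5*, the main ER chaperone, passed the thresholds with each line compared with itself and did not pass unpaired. *ATF4* also passed unpaired with a stricter filter on low counts (adjusted P = 0.0414) and with the likelihood ratio test of edgeR (adjusted P = 0.00659). The ATF4 targets *TRIB3*, *ASNS* and *SESN2* were higher in lines A, C and D and lower in line E. This test was run first on condition alone (unpaired) and then with lines paired (replicate block), and a call required a fold change of at least 1.5 and an adjusted P-value (Benjamini-Hochberg) under 0.05.

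Without pairing, 0 of the 10 genes passed, where 272 of 15744 tested genes did (1.73%), 114 higher (0.724%) and 158 lower (1.00%) in feeder-free conditions. At an unadjusted P-value under 0.05, 5 of the 10 were higher and 0 lower, against 10.2% of all tested genes that were higher at this level. With lines paired, 2 of the 10 were upregulated and 0 downregulated, whereas 5.52% of tested genes were upregulated and 4.53% downregulated. DESeq2 called 3 of the 10 higher (4.41% of tested genes), the likelihood ratio test of edgeR 1 (2.85%), a filter of at least 10 counts in every library 1 (1.43%), and limma-voom 0. Without the fold change threshold the paired test passed 3 of the 10 as higher (7.67%). The feeder-free levels lay above all levels on MEF for 4 of the 10 genes, against 6.21% of tested genes, and 5 of the 10 were higher in all 4 lines, against 20.2%. The median log2 fold change of the 10 genes was 0.34, with a range of -0.10 to 0.87, and that of all tested genes was 0.01.

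**Figure D1:**
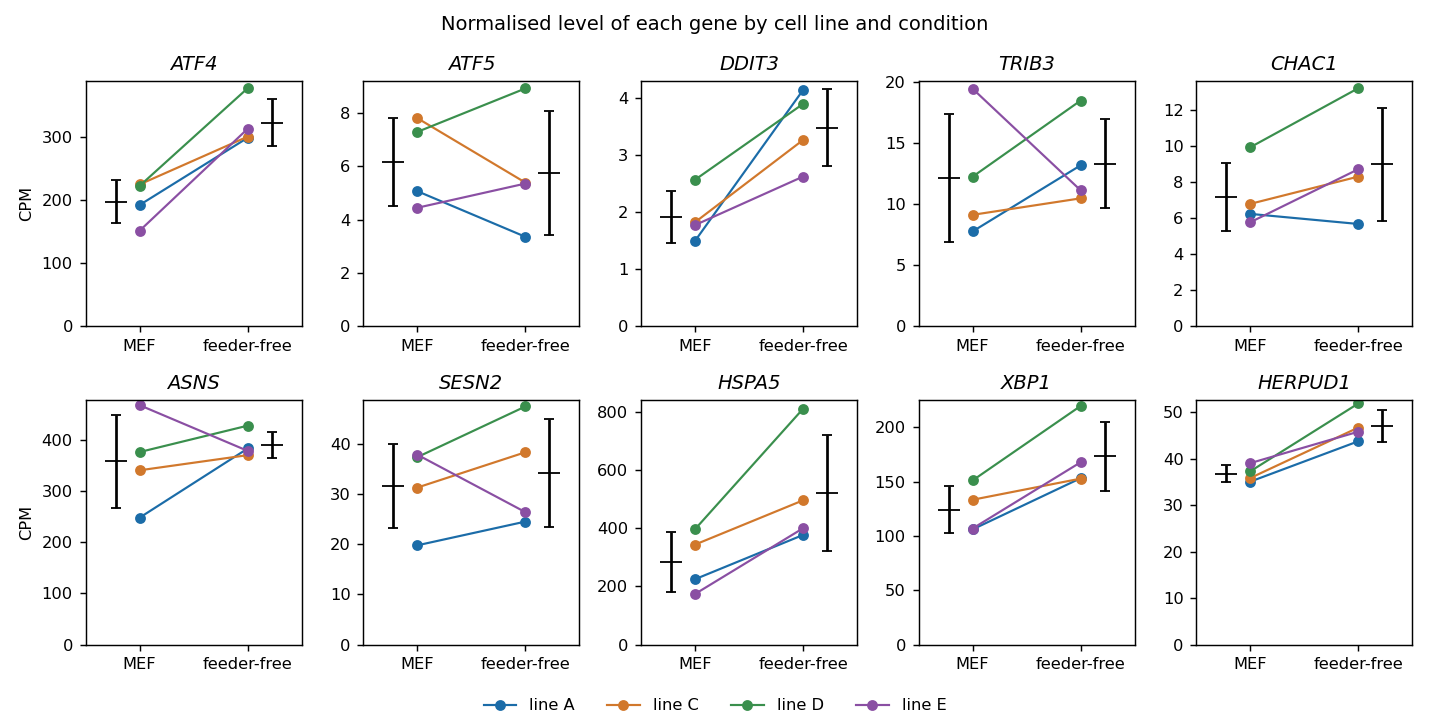
Level of each of the 10 genes in CPM (linear axis from 0) on MEF and in feeder-free conditions, with 1 point per library, lines joining the libraries of a cell line, and bars for the mean ± SD of 4 libraries. *ATF4*, *HSPA5*, *XBP1*, *HERPUD1* and *DDIT3* were higher in feeder-free conditions in all 4 lines, whereas *TRIB3*, *ASNS* and *SESN2* were lower in line E.

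Among the transcription factors, *ATF4* (chromosome 5, 110946624 to 110948719, ARS-UCD2.0) was measured on MEF at 192.1 CPM in line A, 224.7 CPM in C, 222.4 CPM in D and 151.2 CPM in E. In feeder-free conditions it was at 298.9, 300.7, 377.6 and 313.2 CPM in the same order of lines. Every feeder-free library was above every library on MEF, and line E, the lowest on MEF, had the largest log2 ratio. The mean went from 197.6 ± 34.3 to 322.6 ± 37.2 CPM (SD, n = 4 per condition), a log2 fold change of 0.71 ± 0.16 (SE), with an adjusted P-value of 0.0510 in the unpaired edgeR test. With lines paired, the log2 fold change was 0.72 ± 0.12 and *ATF4* was upregulated (edgeR, adjusted P = 0.00619). It stayed past both thresholds in the paired test when any one line was left out, with adjusted P-values of 0.0128 to 0.0312. The log2 ratio within lines was 0.64 in A, 0.42 in C, 0.76 in D and 1.05 in E.

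*DDIT3* (chromosome 5, 55956303 to 55960510), which encodes the pro-apoptotic factor CHOP that dimerises with other CCAAT/enhancer-binding proteins, was low. It was at 1.49, 1.82, 2.56 and 1.77 CPM on MEF in lines A, C, D and E, and at 4.13, 3.26, 3.89 and 2.62 CPM in feeder-free conditions. The libraries of the conditions did not overlap, although the values rest on 62 to 398 counts per library. The mean went from 1.91 ± 0.458 to 3.48 ± 0.680 CPM, with a log2 fold change of 0.86 ± 0.28 (SE). It did not pass in edgeR (adjusted P = 0.116 unpaired and 0.0563 with lines paired), whereas DESeq2 called it higher (adjusted P = 0.0235). The smallest log2 ratio was that of line E (0.56), which had the largest for *ATF4*, and the largest was that of line A (1.45). The annotated span of *DDIT3* overlaps *MARS1*, the methionyl-tRNA synthetase gene, which had 3369 to 13308 counts per library and was at 93.9 ± 9.52 CPM on MEF and 113.1 ± 14.5 CPM in feeder-free conditions (edgeR, adjusted P = 0.269). The strand setting of the counting is not given in the sources used here, so how reads of the overlapping genes were shared between them was not tested.

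*ATF5* (chromosome 18, 56269038 to 56273679), a related factor that is also translated when eIF2α is phosphorylated, differed in direction between lines. On MEF it was at 5.07, 7.81, 7.29 and 4.44 CPM in lines A, C, D and E, and in feeder-free conditions at 3.35, 5.39, 8.92 and 5.35 CPM. It was lower in feeder-free conditions in lines A and C and higher in lines D and E, and the conditions overlapped widely. The log2 fold change was -0.10 ± 0.32 (SE) and did not pass (edgeR, adjusted P = 0.907). Its span overlaps *NUP62*, a nuclear pore gene at 226.9 CPM on MEF, and *IL4I1*, so its level is uncertain in the same way.

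Of the ATF4 targets, *TRIB3* (chromosome 13, 60632819 to 60645777) encodes a pseudokinase that is induced by ATF4 and DDIT3 and restrains AKT. It was at 7.75, 9.12, 12.2 and 19.5 CPM on MEF in lines A, C, D and E, and at 13.2, 10.5, 18.5 and 11.1 CPM in feeder-free conditions. Line E on MEF had the highest of all 8 values, and the conditions overlapped. The log2 ratio was 0.76 in A, 0.20 in C and 0.59 in D, but -0.80 in E, so that the log2 fold change over all lines was 0.13 ± 0.31 (SE; edgeR, adjusted P = 0.853).

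*ASNS* (chromosome 4, 15128710 to 15276425), asparagine synthetase, showed the same order of lines as *TRIB3*. It was at 248.2, 340.9, 376.6 and 468.4 CPM on MEF and at 383.6, 370.6, 428.3 and 378.9 CPM in feeder-free conditions. The spread between lines was wider on MEF (mean 358.5 ± 91.1 CPM) than in feeder-free conditions (390.4 ± 25.9 CPM), a difference in spread that was not tested. The log2 fold change was 0.12 ± 0.18 (SE; edgeR, adjusted P = 0.758), with log2 ratios of 0.63, 0.12 and 0.19 in lines A, C and D and -0.31 in line E.

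*SESN2* (chromosome 2, 125114002 to 125131744), sestrin 2, a leucine sensor that restrains mTORC1, was at 19.8, 31.3, 37.4 and 37.9 CPM on MEF. In feeder-free conditions it was at 24.5, 38.4, 47.5 and 26.4 CPM. Lines A, C and D had log2 ratios of 0.31, 0.29 and 0.34, close to each other, and line E had -0.52. The log2 fold change was 0.11 ± 0.26 (SE; edgeR, adjusted P = 0.854). *CHAC1* (chromosome 10, 36485787 to 36488158), which encodes a glutathione-degrading enzyme, followed another order. It was at 6.22, 6.77, 9.91 and 5.75 CPM on MEF and at 5.66, 8.29, 13.2 and 8.70 CPM in feeder-free conditions, higher in lines C, D and E and with a log2 ratio of -0.14 in line A. Its log2 fold change of 0.32 ± 0.29 (SE) did not pass (edgeR, adjusted P = 0.565). It was 0.08 without the feeder-free library of line D, 0.52 without line D on MEF and 0.49 without line A in feeder-free conditions.

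Among the ER genes, *HSPA5* (chromosome 11, 96115158 to 96119452) encodes BiP, the chaperone that binds unfolded proteins in the ER lumen and holds the ER sensors inactive. On MEF it was at 224.2 CPM in line A, 343.2 CPM in C, 395.8 CPM in D and 173.4 CPM in E. In feeder-free conditions it was at 376.5, 495.5, 810.1 and 399.5 CPM. Each line was higher in feeder-free conditions, but the lines differed so much from each other that the feeder-free level of line A lay below the level of line D on MEF. The mean went from 284.1 ± 103 to 520.4 ± 199.9 CPM, with a log2 fold change of 0.87 ± 0.32 (SE) that did not pass unpaired (edgeR, adjusted P = 0.151). With lines paired the log2 fold change was 0.88 ± 0.13 and *HSPA5* was upregulated (edgeR, adjusted P = 0.00336), also with any one line left out (adjusted P = 0.00655 to 0.0167). Without line D, whose feeder-free library stood highest, the paired log2 fold change was 0.83, and without that library alone the unpaired one was 0.58.

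*XBP1* (chromosome 17, 68052009 to 68057008), the factor activated by IRE1 through splicing of its mRNA, was at 106.1, 133.4, 151.2 and 106.9 CPM on MEF and at 153.3, 152.9, 219.9 and 168.0 CPM in feeder-free conditions. The lowest feeder-free library, that of line C, was just above the highest on MEF, that of line D. The log2 fold change was 0.48 ± 0.17 (SE; edgeR, adjusted P = 0.140). With lines paired its adjusted P-value was 0.0210 in edgeR and the increase remained under the fold change threshold. It passed both thresholds without line C (0.59), which had the smallest log2 ratio, at 0.20 against 0.53 to 0.65 in the others. Without line D its paired adjusted P-value was 0.1125 in edgeR, and without lines A and E it was 0.0459 and 0.0481.

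*HERPUD1* (chromosome 18, 24966368 to 24977795), an ER membrane protein of the degradation machinery, had a narrow spread between lines. It was at 35.03, 35.8, 37.3 and 39.0 CPM on MEF and at 43.7, 46.7, 51.9 and 45.8 CPM in feeder-free conditions, without overlap. The mean went from 36.8 ± 1.75 to 47.0 ± 3.46 CPM, and the log2 fold change of 0.35 ± 0.10 (SE) did not pass (edgeR, adjusted P = 0.0950 unpaired and 0.0579 with lines paired). The level was higher in each line, with log2 ratios of 0.32, 0.38, 0.48 and 0.23 in A, C, D and E.

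**Figure D2:**
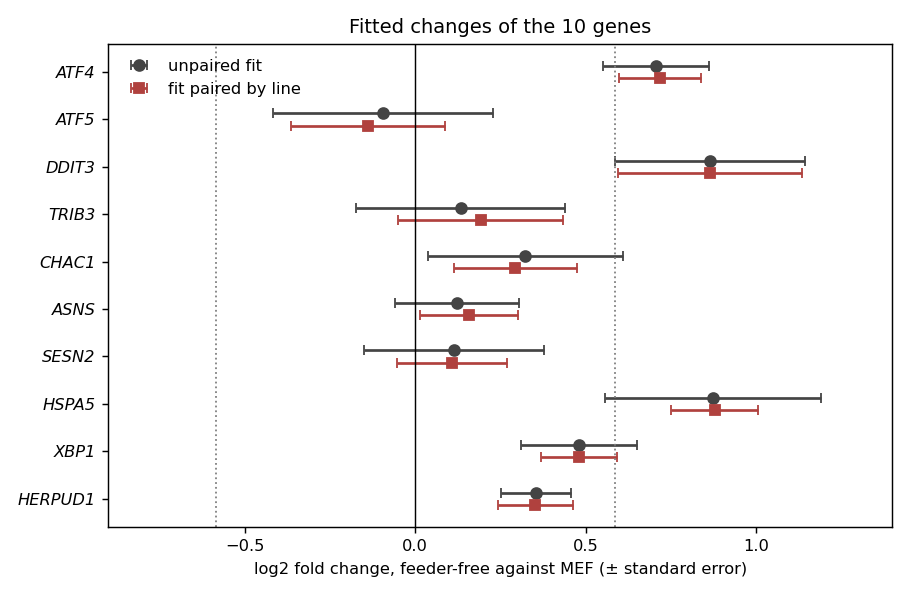
Log2 fold change of the 10 genes, feeder-free against MEF, with bars of ± 1 standard error, from the unpaired edgeR fit (circles) and the fit with lines paired (squares). The dotted lines mark a fold change of 1.5 in either direction, and pairing narrows the bar of *HSPA5* from 0.32 to 0.13 while its estimate stays near 0.88.

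The lines did not follow a single order among these genes, and the shares of all tested genes with such orders were not counted. The log2 ratio increased in the order C, A, D, E for *ATF4*, *HSPA5* and *XBP1* alike, whereas line E had the smallest ratio for *DDIT3*, *TRIB3*, *ASNS*, *SESN2* and *HERPUD1*. In feeder-free conditions, line D had the highest level of 9 of the 10 genes and line A the lowest of 6. On MEF, line A was again lowest for 6, and lines D and E were highest for 4 each. The feeder-free library of line D also had the largest total count. It had the highest fibroblast marker sum as well (1303 CPM, of which *COL1A1* made up 1033 CPM). The part of either in its high levels was not tested. With its counts thinned to a total of 51066407, a step chosen after the data were seen, the log2 fold changes of *ATF4* and *HSPA5* were 0.71 and 0.88.

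*TRIB3*, *ASNS* and *SESN2* were higher in feeder-free conditions in lines A, C and D and lower in line E. This pattern was chosen for counting after their values were seen. It was found in 3 of the 10 genes, a count fixed by that choice. Of all tested genes 6.22% had it, and of 121 other tested genes of the stress pathway lists 13 did. Among these 121 were 35 amino acid transporters, aminoacyl-tRNA synthetases and amino acid synthesis enzymes, of which 8 had this pattern. In line E the median log2 ratio of all tested genes was 0.0035, and the share of them that were higher was not counted. Of the 35, 11 were higher in line E, such as *SLC7A3* (log2 ratio 0.89) and *CTH* (0.71). Examples with a large negative ratio in line E, named, like these, after their values had been seen, were *PSAT1* and *PSPH* of serine synthesis and *SLC7A11*, the cystine transporter. *PSAT1* was at 17.0, 9.19 and 7.18 CPM on MEF in lines A, C and D and at 41.8 CPM in line E, and line E was at 15.5 CPM in feeder-free conditions. *PSPH* was at 62.4 to 78.9 CPM on MEF in the other lines and at 174.9 CPM in line E. *SLC7A11* was at 5.43 to 10.1 CPM on MEF in the other lines and at 18.8 CPM in line E, with log2 ratios of 1.37, 0.56 and 1.30 in A, C and D and -1.52 in E. For each of the 3, the culture of line E on MEF was above the other lines on MEF. With 1 library per line and condition, a difference between lines has no replicate check. Without line E, the paired log2 fold change was 0.53 for *TRIB3*, 0.32 for *ASNS* and 0.33 for *SESN2*, and none of the 3 passed (edgeR, adjusted P = 0.0802, 0.140 and 0.0880). As line E alone had a negative log2 ratio for these genes, leaving it out had to raise their values. Without line A instead, the values were -0.000926, -8e-04 and 0.041 in the same order.

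**Figure D3:**
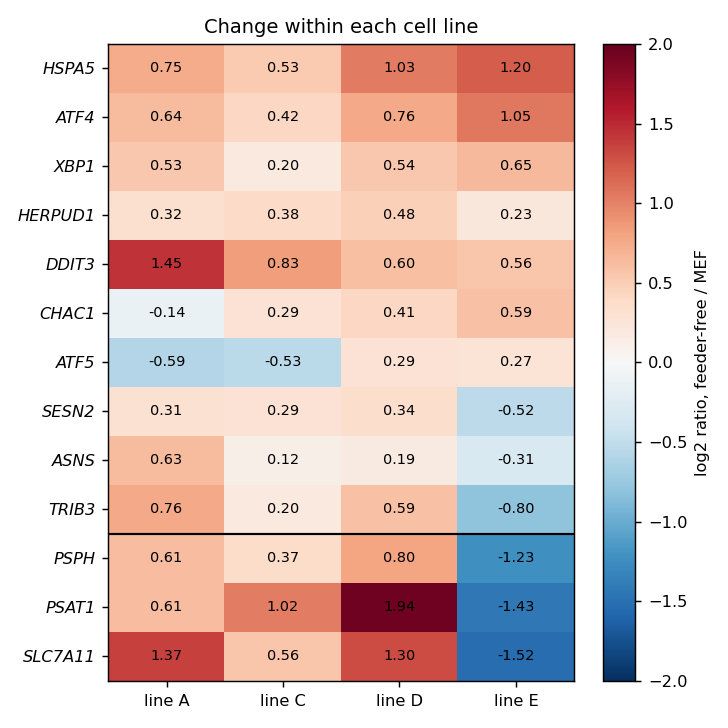
Log2 ratio of feeder-free against MEF within each cell line, printed in each cell and coloured from blue (lower in feeder-free) to red (higher), for the 10 genes above the black line and 3 genes of amino acid supply below it. These 3 were picked for a large negative ratio in line E after their values had been seen. Of 35 genes of amino acid supply, 11 were higher in line E, where the median log2 ratio of all tested genes was 0.0035. The upper 5 genes are positive in all lines, and the lowest 6 are negative in line E and positive in lines A, C and D.

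The other genes of these pathways were counted in fixed lists, each read against the shares of tested genes given above. Among 18 tested ER chaperones and folding enzymes, 1 was upregulated unpaired and 5 with lines paired, 0 were downregulated in either test, and the median log2 fold change was 0.31. In the unpaired test 8 of the 18 were higher and 0 lower at an unadjusted P-value under 0.05, where 10.2% of tested genes were higher. The feeder-free levels lay above those on MEF for 6 of the 18, and 10 were higher in all lines. The gene upregulated unpaired was *MANF* (chromosome 22, 49379788 to 49383627), a small secreted ER stress protein that binds BiP. It was at 51.4, 54.4, 45.1 and 50.9 CPM on MEF and at 121.8, 83.7, 147.5 and 119.0 CPM in feeder-free conditions. The conditions did not overlap, and the log2 fold change was 1.23 ± 0.17 (SE; edgeR, adjusted P = 0.0331). This call was lost when any one library was left out, except line A in feeder-free conditions, with adjusted P-values up to 0.116. In the settings where it was lost, the log2 fold change of *MANF* was 1.10 to 1.36, and 0 to 6 of all tested genes passed. Its paired call remained without any one line. The other 4 upregulated with lines paired, named after their values were seen, were *CRELD2* (34.7 ± 5.50 against 68.1 ± 19.9 CPM), *SDF2L1* (15.0 ± 4.10 against 29.96 ± 9.59 CPM), the BiP cochaperone *DNAJC3* and the prolyl isomerase *FKBP2*. Among the abundant ER folding genes, also named after their values were seen, *HSP90B1* and *CALR* were higher in all 4 lines without overlap, with log2 fold changes of 0.59 and 0.55. With lines paired their adjusted P-values in edgeR were 0.00779 and 0.0166, with paired log2 fold changes of 0.57 and 0.52 that were under the fold change threshold. *CANX* (0.01), *PDIA6* (0.06) and *P4HB* (-0.09) did not pass (edgeR, adjusted P = 0.991, 0.854 and 0.795).

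The sensors and eIF2α kinases gave calls only with lines paired, where 5.52% of tested genes were upregulated and 4.53% downregulated. Of 9 ER stress sensors and genes of the ATF6 branch, 0 passed unpaired and 1 with lines paired, the membrane-bound transcription factor gene *CREB3* (7.29 ± 1.31 CPM on MEF and 13.3 ± 3.94 CPM in feeder-free conditions), whose span overlaps *GBA2*. The median log2 fold change of this list was -0.24, and the sensor genes *ERN1* (IRE1) and *ATF6*, named for their role after their values were seen, had values of -0.24 and -0.38 that did not pass (edgeR, adjusted P = 0.492 and 0.177). *ATF6* was lower in all 4 lines, and its feeder-free levels lay below all levels on MEF. With lines paired it did not pass either (log2 fold change -0.39, edgeR, adjusted P = 0.0550). Of 12 genes for eIF2α kinases, phosphatase subunits and eIF2B, 0 passed unpaired and 1 with lines paired. This was *EIF2AK4*, the gene for GCN2, the kinase that senses uncharged tRNA, at 36.2 ± 15.2 CPM on MEF and 62.4 ± 16.3 CPM in feeder-free conditions. It was higher in all 4 lines, with a paired log2 fold change of 0.84 ± 0.13 (SE; edgeR, adjusted P = 0.00464) and an unpaired one of 0.79 ± 0.30 (adjusted P = 0.171). *EIF2AK3*, the gene for PERK, named in the same way, had a log2 fold change of 0.29 that did not pass (edgeR, adjusted P = 0.381). At an unadjusted P-value under 0.05 the unpaired test left 3 of the 12 higher and 0 lower, where 10.2% of tested genes were higher. Of the 9 sensors and ATF6 branch genes it left 1 higher and 1 lower.

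Partners and other targets of ATF4 moved in both directions. Of 10 tested, 0 passed unpaired, and 3 were upregulated and 3 downregulated with lines paired. The unpaired test left 3 higher and 4 lower at an unadjusted P-value under 0.05. Of all tested genes, 10.2% were higher at this level and 21.6% were under it in either direction. *ATF3*, a stress-induced repressor, was at 11.5, 11.8, 21.8 and 10.6 CPM on MEF and at 14.0, 26.6, 62.1 and 26.0 CPM in feeder-free conditions, higher in each line. Its log2 fold change was 1.21 ± 0.43 (SE) unpaired and 1.07 ± 0.19 with lines paired (edgeR, adjusted P = 0.144 and 0.00797). *DDIT4*, also called REDD1, an inhibitor of mTORC1 that responds to hypoxia as well as to ATF4, went the other way. It was at 1384, 605.4, 769.9 and 1350 CPM on MEF and at 603.8, 491.1, 234.9 and 586.1 CPM in feeder-free conditions, lower in each line. Its log2 fold change was -1.10 ± 0.35 (SE) unpaired and -1.11 ± 0.19 with lines paired (edgeR, adjusted P = 0.113 and 0.00698). The remaining calls, named after their values were seen, were *JDP2* and *EIF4EBP1*, higher, and *STC2* and *VLDLR*, lower in feeder-free conditions.

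Genes of amino acid supply showed no common direction. Among 12 synthesis enzymes, 1 was downregulated unpaired, and 1 was upregulated and 1 downregulated with lines paired, with a median log2 fold change of -0.10. *ALDH18A1* (chromosome 26, 17088635 to 17129757), the first enzyme of proline synthesis from glutamate, was at 199.0, 192.8, 207.4 and 248.4 CPM on MEF and at 100.3, 126.6, 87.6 and 113.7 CPM in feeder-free conditions. It was lower in every line, with a log2 fold change of -0.99 ± 0.15 (SE; edgeR, adjusted P = 0.0331), and its span overlaps *LOC525649*. As with *MANF*, the call was lost when any one library was left out, except line A in feeder-free conditions, with log2 fold changes of -0.90 to -1.08. The paired call remained without any one line (edgeR, adjusted P = 0.00528 to 0.00991). *CTH*, the last enzyme of cysteine synthesis, named after its values were seen, was upregulated with lines paired, from 16.9 ± 3.28 to 28.1 ± 5.24 CPM. None of 10 amino acid transporters and none of 13 aminoacyl-tRNA synthetases passed both thresholds in either edgeR test, and their median log2 fold changes were 0.17 and -0.02. At an unadjusted P-value under 0.05 the unpaired test left 1 transporter, *SLC7A1* (named after its values were seen), lower, and 0 synthetases. Of the 12 synthesis enzymes it left 1 higher and 2 lower. Of all tested genes, 21.6% were under this P-value in either direction.

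In ER-associated degradation and translocation, 20 genes were tested, of which 0 passed unpaired and 1, the lectin gene *OS9*, was downregulated with lines paired (68.5 ± 10.9 against 44.9 ± 6.49 CPM). Of 7 genes of mitochondrial stress, 0 passed unpaired and the protease gene *LONP1* was downregulated with lines paired (365.0 ± 14.0 against 242.3 ± 35.4 CPM), and its span overlaps *RPL36*. Of 10 cytosolic heat shock genes, 0 passed unpaired and 1, the HSP110 chaperone gene *HSPH1*, was upregulated with lines paired (108.4 ± 43.1 against 176.5 ± 52.0 CPM). Unadjusted P-values under 0.05 in the unpaired test were found for 1 higher and 1 lower of the 20, 1 lower of the 7, and 2 higher of the 10.

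**Figure D4:**
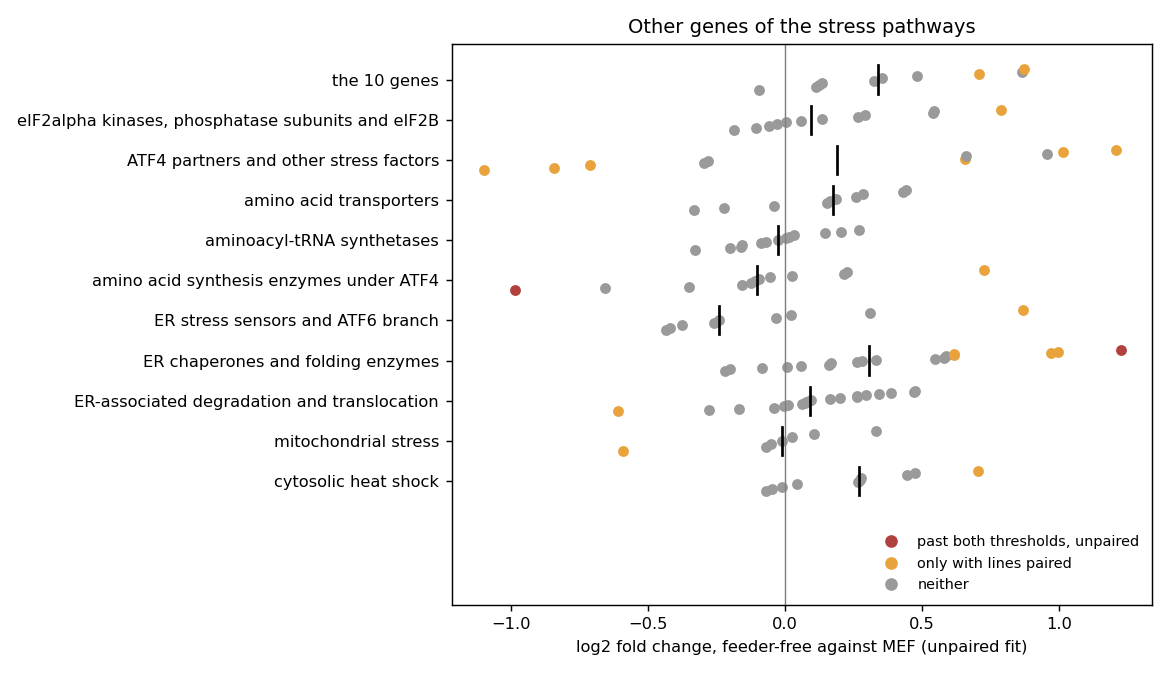
Log2 fold change, feeder-free against MEF, of every tested gene in the 10 genes and the other stress pathway lists, with 1 point per gene, coloured by the test it passed, and a black bar at the median of each list. *MANF* is the rightmost point among the ER chaperones, *ALDH18A1* the leftmost among the synthesis enzymes, and the medians lie between -0.24 and 0.34.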

How the data were processed

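Raw counts per gene, deposited by the authors for 8 libraries, were used as deposited. Per the study's methods, paired-end reads were trimmed, aligned with STAR to the assembly ARS-UCD2.0, cleared of optical duplicates and poorly mapped alignments, and counted with featureCounts (Subread 1.6.2 in the submitters' processing notes). The strand setting is not given in the sources used here. The methods also describe removing reads of a pure MEF sample, which was not analysed here, and name RNeasy kits where the labels name Trizol. No values were given for 3 listed genes (*DST*, *NEB* and *SYNE1*), and 0 sample columns were unused. RefSeq matched 30268 listed genes and 155 of 155 list genes, and gave coordinates. Sequences and exon lengths were not used here, so levels were not compared between genes. No libraries were duplicates (12 pairs within conditions, smallest chi-square per degree of freedom 40.8).

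Genes were tested with edgeR 4.0.16 in R 4.3.3 (filterByExpr, TMM, glmQLFit, glmQLFTest) with condition as the only term, and P-values were adjusted over 15744 genes (Benjamini-Hochberg). CPM used TMM library sizes, and log2 ratios within lines a prior count of 2. Standard errors were computed from each gene's F statistic and log2 fold change. The same cell line in both conditions pairs the libraries. Their deviations from the condition means had r values of 0.582 (line A), 0.557 (line C), 0.664 (line D) and 0.421 (line E), against -0.523 to 0.249 between different lines, so a second fit included the line (replicate block). The alternatives were other scalings, filters and thresholds, the likelihood ratio test, DESeq2 1.42.0, limma-voom 3.58.1, libraries or lines left out, and, chosen after the data were seen, a thinned library and the block without a fold change threshold. The fits were tested on simulated data. The 10 genes and the lists were chosen with earlier results of these data known. The pattern of line E against lines A, C and D was chosen for counting after the data were seen. Named genes were the 10, from each list those called unpaired or, failing that, up to 2 with the largest change called with lines paired, and the 5 genes outside the lists most like the ATF4 branch. Any other gene was named after its values were seen.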

Additional observations from a re-analysis of the deposited data

How the results depend on the processing

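Of the 10 genes, 0 passed unpaired, and 1 (*ATF4*) passed with at least 10 counts in every library, 1 (*ATF4*) with the likelihood ratio test, 3 (*ATF4*, *DDIT3* and *HSPA5*) with DESeq2, 2 (*ATF4* and *HSPA5*) with the replicate block and 3 with the block and no fold change threshold. None passed as lower in any setting, or in either direction without any one library. Of the other pathway genes 2 passed unpaired, 10 with the likelihood ratio test, 17 with DESeq2, 18 with the block, 27 with the block and no fold change threshold, and 0 to 5 with 1 library left out. Of all tested genes 272 passed, against 174 without scaling, 170 without a filter, 412 with at least 10 counts in every library, 837 with the likelihood ratio test, 1212 with DESeq2, 1582 with the block, 2486 with the block and no fold change threshold, and 0 to 490 with 1 library left out, the latter without line A in feeder-free conditions. With lines paired and 1 line left out, 10 to 20 pathway genes and 742 to 1651 tested genes passed, the fewest without line D. Thinning the deepest library left 255, 254 of them among the 272. Among the unpaired calls 270 of 272 were also called with the block.

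With 1 library left out, the log2 fold change ranged from -0.39 to 0.0919 for *ATF5*, -0.0658 to 0.45 for *TRIB3*, -0.0187 to 0.28 for *ASNS* and -0.0849 to 0.24 for *SESN2*. With lines paired and 1 line left out it ranged from -0.29 to 0.00902 for *ATF5*, -0.000926 to 0.53 for *TRIB3* and -8e-04 to 0.32 for *ASNS*. With 1 library left out *CHAC1* ranged from 0.08 to 0.52. *CHAC1* and the other 5 genes kept their direction in every setting. Where a call or direction changed, the cause was not tested. Depth limits *DDIT3* most, with counts of 62 to 398.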

Other observations

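The genes outside the lists whose log2 CPM over the 8 libraries was most like the mean standardised level of the 7 ATF4-branch genes (*ATF4*, *ATF5*, *DDIT3*, *TRIB3*, *CHAC1*, *ASNS* and *SESN2*) were *ADAM8*, a membrane metalloprotease gene, with a Pearson r of 0.98, *CDC25C*, the mitotic phosphatase gene (0.97), *HVCN1*, a proton channel gene (0.97), *HTR7*, a serotonin receptor gene (0.97), and *INTS6*, an Integrator subunit gene (0.97). The libraries share lines and conditions, and the genes were picked from all tested genes for their likeness, so the values are a description. None of the 5 was called in either edgeR test. The branch level, in SD units, was -1.22, -0.30, 0.28 and -0.15 on MEF in lines A, C, D and E and -0.18, 0.22, 1.31 and 0.04 in feeder-free conditions, higher in feeder-free conditions in each line. In line E this mean joins opposite changes, with *ATF4*, *ATF5*, *DDIT3* and *CHAC1* higher and *TRIB3*, *ASNS* and *SESN2* lower in feeder-free conditions. It also joins opposite changes in line A, where *ATF5* and *CHAC1* were lower, and in line C, where *ATF5* was lower.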
